A study of Rattus norvegicus with 5 samples.

Results

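The genes described here encode chromatin remodellers and enzymes that add marks to, or take them off, histones and DNA. They were chosen by symbol: the Chd, Kdm, Kmt, Setd, Hdac, Dnmt and Tet families followed by a number, with Ash1l, Nsd1, Ezh1, Ezh2, Ep300 and Crebbp. Of 23553 gene symbols named in the 9 deposited lists, 64 met this rule, and 63 of these were protein-coding genes in RefSeq. The other 1, Dnmt3b-ps2, is a pseudogene. N6-methyladenine (6mA) was measured in rat genomic DNA by immunoprecipitation with an anti-6mA antibody and sequencing. The groups were Astrocytes and Neurons, known here only by those labels, and NSCs, neural stem cells of the SCR022 line, a commercial line of adult rat hippocampal stem cells. Each gave 1 immunoprecipitated library, and NSCs and Neurons each had an input library, which is DNA kept back before the antibody step. The Astrocyte peak list is named as called over an astrocyte input, which was not analysed here. Total reads were 15767015 in Astrocytes, 16095308 in Neurons and 15760246 in NSCs, and 22329441 and 27936774 in the Neurons and NSCs inputs. No group had a replicate, so no difference between cell types could be tested, and all counts and shares below describe these libraries. RNA was not measured, so the labelled cell types could not be set against marker genes.

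Cytosine methylation is written by the DNA methyltransferases Dnmt1, Dnmt3a and Dnmt3b, and the TET dioxygenases oxidise it. Histone lysine methyltransferases and demethylases, acetyltransferases and deacetylases set the marks on nucleosomes, and CHD proteins use ATP to move nucleosomes. Several of these genes are known in brain development: Chd7, Chd8, Ash1l, Nsd1, Kmt2d, Crebbp and Ep300 are altered in human neurodevelopmental disorders. A 6mA peak in such a gene says where antibody-bound DNA was found and says nothing about how much of the enzyme the cell holds. How much 6mA mammalian DNA contains is debated, and antibodies against it can also bind other DNA.

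Chromatin genes carried peaks in all 3 cell types. A peak is a region that the authors called as enriched over input, and a gene counts as having one when the deposited annotation names it for that region. There were 140 such peaks in Astrocytes, 185 in Neurons and 147 in NSCs. Like peaks in genes at large, most lay in introns: 94.3% in Astrocytes, 95.1% in Neurons and 91.8% in NSCs, against 88.2%, 87.7% and 88.3% of all peaks with a gene name. Of 76 protein-coding RefSeq genes that meet the symbol rule, 45 had a peak in Astrocytes (59.2%, exact 95% interval 47.3 to 70.4), against 43.1% of all 20949 genes. In Neurons 49 had one (64.5%, interval 52.7 to 75.1), against 46.1% of all genes. In NSCs 45 had one (59.2%), against 42.8% of all genes, and the pseudogene Dnmt3b-ps2 had 1 more. Intervals here cover counting error only.

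Chromatin genes are long, so genes of like length were set beside them as well. Their median length was 48.1 kb, against 17.6 kb over all genes. Among genes of 24.4 to 88.9 kb, the middle range of the chromatin genes' lengths, 25 of 38 chromatin genes had an Astrocyte peak (65.8%), against 65.6% of all 5810 genes of those lengths. In Neurons 24 of the 38 had one (63.2%), against 69.8%. In NSCs 26 of the 38 had one (68.4%), against 65.5%. At equal length these shares lay close to those of other genes. Peaks per 100 kb, pooled over the 76 chromatin genes, came to 2.31 in Astrocytes, 3.05 in Neurons and 2.41 in NSCs. The same density over all genes was 3.25 in Astrocytes, 3.82 in Neurons and 3.31 in NSCs. Within the middle length range it was 2.63, 2.88 and 2.48 for chromatin genes in Astrocytes, Neurons and NSCs, against 3.32, 3.88 and 3.34 for all genes of that range. The pooled density was thus lower in chromatin genes in each of the 3 libraries. Without Hdac9, the longest of them, it was 2.23 in Astrocytes, 2.96 in Neurons and 2.29 in NSCs.

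**Figure D1:**
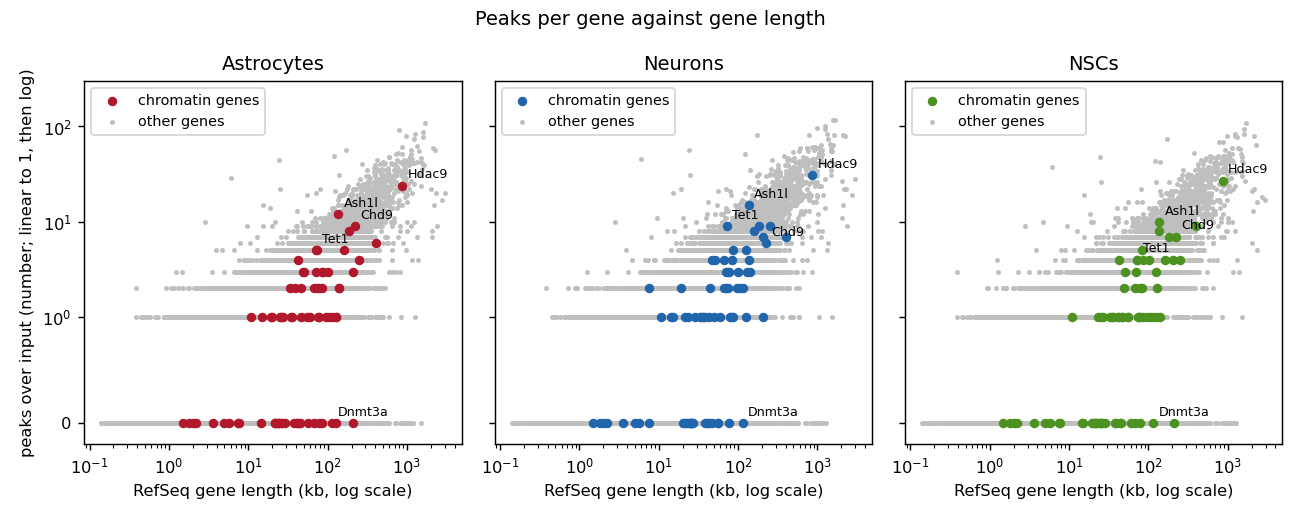
Peaks over input per gene (vertical axis, number, linear up to 1 and logarithmic above) against RefSeq gene length (horizontal axis, kb, log scale) in Astrocytes, Neurons and NSCs. Coloured points are the 76 chromatin genes and grey points are other protein-coding genes: peak number climbs with length, Hdac9 is the longest chromatin gene with 24, 31 and 27 peaks in Astrocytes, Neurons and NSCs, and Dnmt3a has 0 in each.

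The share of peaks that recurred between cell types was lower among chromatin gene peaks than among all peaks that name a gene, with no replicate to test it. In Astrocytes 37.9% of the 140 chromatin gene peaks overlapped a peak of both Neurons and NSCs by at least 1 bp (interval 29.8 to 46.4), against 47.3% of all such peaks. In Neurons the share was 28.6% of 185 (22.3 to 35.7), against 40.0%, and in NSCs it was 35.4% of 147 (27.7 to 43.7), against 46.1%. All 3 intervals lay below the value over all genes. Conversely, 35.0% of the Astrocyte, 49.2% of the Neuron and 42.2% of the NSC chromatin gene peaks met no peak of either other cell type, against 28.7%, 35.5% and 30.6% of all peaks. The peaks also had lower scores, where the score is 10 times the −log10 p of the peak caller. The median score was 78.2 in Astrocytes, 69.7 in Neurons and 78.0 in NSCs, against 89.1, 90.0 and 88.6 over all peaks with a gene name. Among peaks at or above a score of 87.44, the shared percent was 51.7 in Astrocytes (interval 38.2 to 65.0), 45.6 in Neurons (33.5 to 58.1) and 51.7 in NSCs (38.2 to 65.0), against 59.8, 49.9 and 58.6. Each of these intervals held the value over all peaks, but only 58, 68 and 58 chromatin gene peaks remained. The percent that met neither other cell type was then 24.1 in Astrocytes (13.9 to 37.2), 32.4 in Neurons (21.5 to 44.8) and 36.2 in NSCs (24.0 to 49.9). Over all peaks it was 20.5, 29.7 and 23.2, so the NSC interval still lay above its value. Merging overlapping peaks of the 3 lists within each gene gave 309 sites, of which 51 had a peak in all 3 cell types. The sites with a peak in 1 cell type numbered 49 for Astrocytes, 92 for Neurons and 62 for NSCs.

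**Figure D2:**
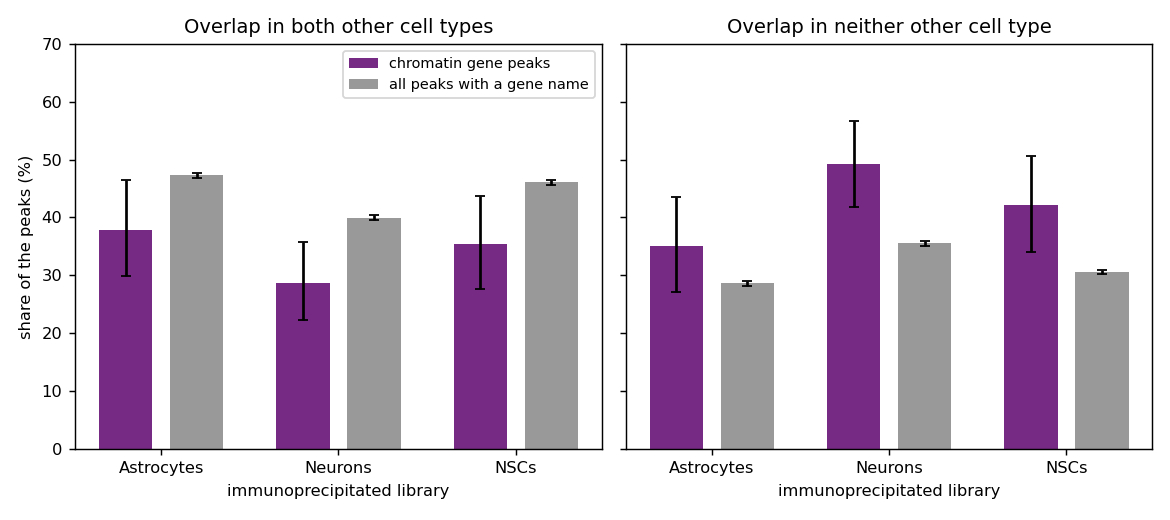
Share of peaks (vertical axis, %) that overlap a peak in both other cell types (left) or in neither (right), for Astrocytes, Neurons and NSCs. Purple bars are chromatin gene peaks, grey bars are all peaks with a gene name, and error bars are exact 95% intervals; the purple bars are lower on the left, for example 28.6% against 40.0% in Neurons.

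**Figure D3:**
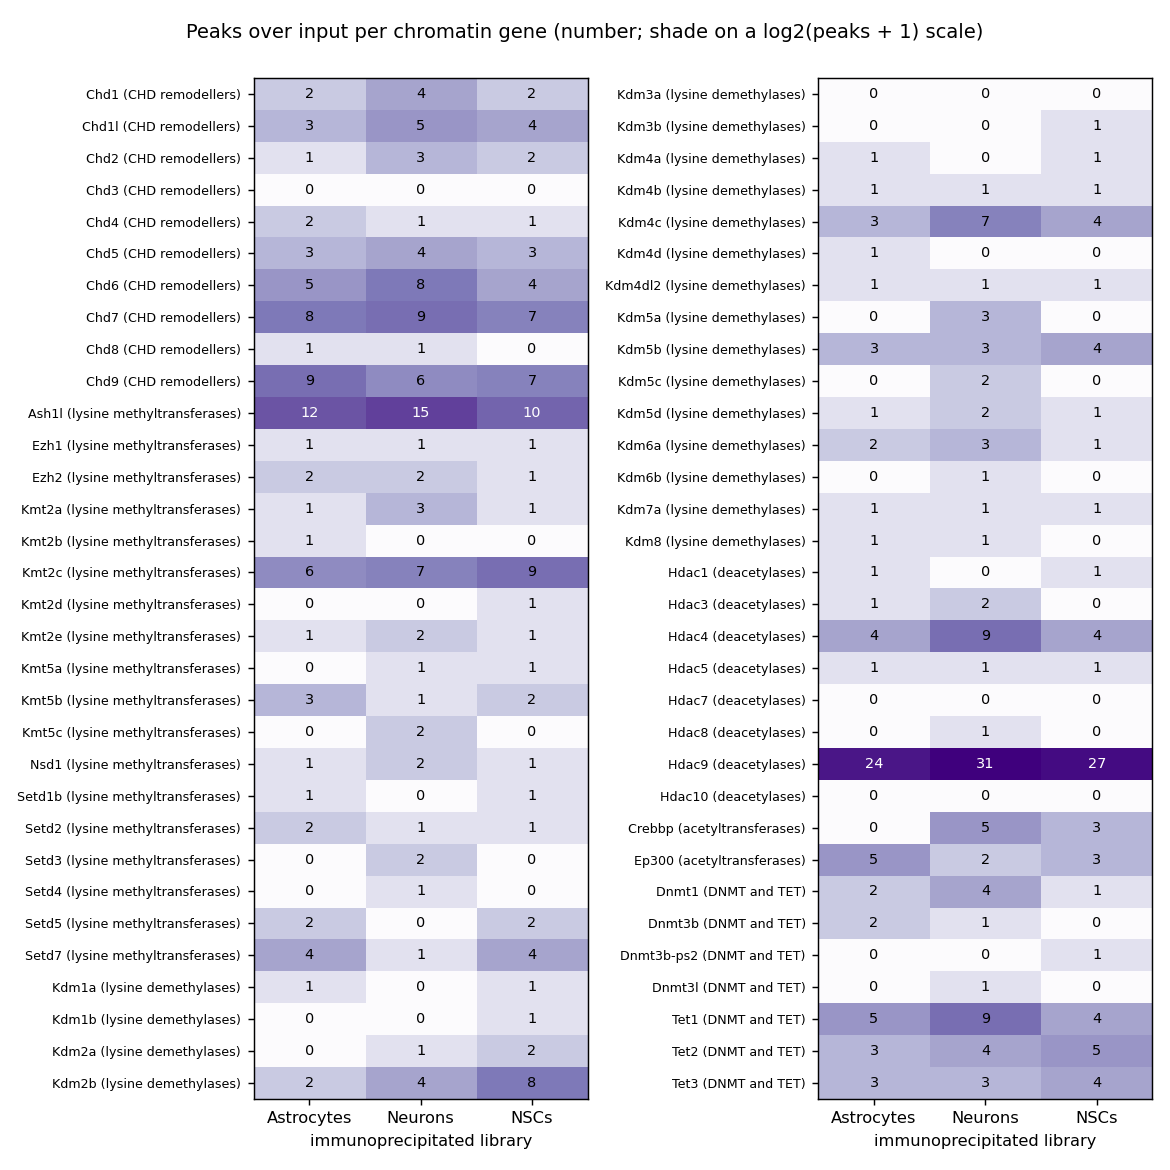
Number of peaks over input in each of the 64 chromatin genes (rows, with the enzyme class in brackets) in Astrocytes, Neurons and NSCs (columns), shaded on a log2(peaks + 1) scale. Hdac9 and Ash1l hold the most, and 34 genes have a peak in every column.

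Among the CHD remodellers, 9 of 12 genes had a peak in Astrocytes, 9 in Neurons and 8 in NSCs, with 34, 41 and 30 peaks. In Neurons and in NSCs the chromatin gene peak with the largest fold of the list was in an intron of Chd9, a CHD family protein, and in Astrocytes the overlapping peak came after 1 of Hdac9. The Chd9 peak lay at chr19:17503560-17504272 in Astrocytes, at chr19:17503512-17504210 in Neurons and at chr19:17503602-17504173 in NSCs, in the coordinates of the deposited lists, whose genome build the sources used here do not name. Its fold over input, the authors' own value as are all peak folds and scores below, was 101 in Astrocytes, 178 in Neurons and 205 in NSCs. Folds of separate lists are not on a common scale, and within its own list the peak ranked above 99.5% of the peaks in Astrocytes, 99.97% in Neurons and 99.996% in NSCs. In the same gene another intronic peak, chr19:17498872-17499313, had a fold of 54.9 in NSCs. Chd9 had 9, 6 and 7 peaks in Astrocytes, Neurons and NSCs. Chd4, the ATPase of the NuRD complex, had an intronic peak at chr4:157621038-157621409 in Astrocytes with a fold of 84.4. The overlapping Chd4 peaks had folds of 86.6 in Neurons and 47.3 in NSCs.

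Chd7, a remodeller that acts at enhancers and is altered in CHARGE syndrome, had the largest share of recurring sites among chromatin genes with at least 10 sites. It had 8 peaks in Astrocytes, 9 in Neurons and 7 in NSCs, and 7 of its 10 sites had a peak in all 3. Its leading intronic peak, at chr5:21815960-21816661 in Astrocytes, had folds of 36.7 in Astrocytes, 40.9 in Neurons and 29.1 in NSCs. Chd6, of the same subfamily, had 5, 8 and 4 peaks in Astrocytes, Neurons and NSCs, but only 2 of its 12 sites were in all 3. Chd2, a remodeller altered in childhood epilepsy, had 1, 3 and 2 peaks, and none of its 5 sites was in all 3. Chd8, a major autism gene, had 1 peak in Astrocytes, 1 in Neurons and 0 in NSCs.

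**Figure D4:**
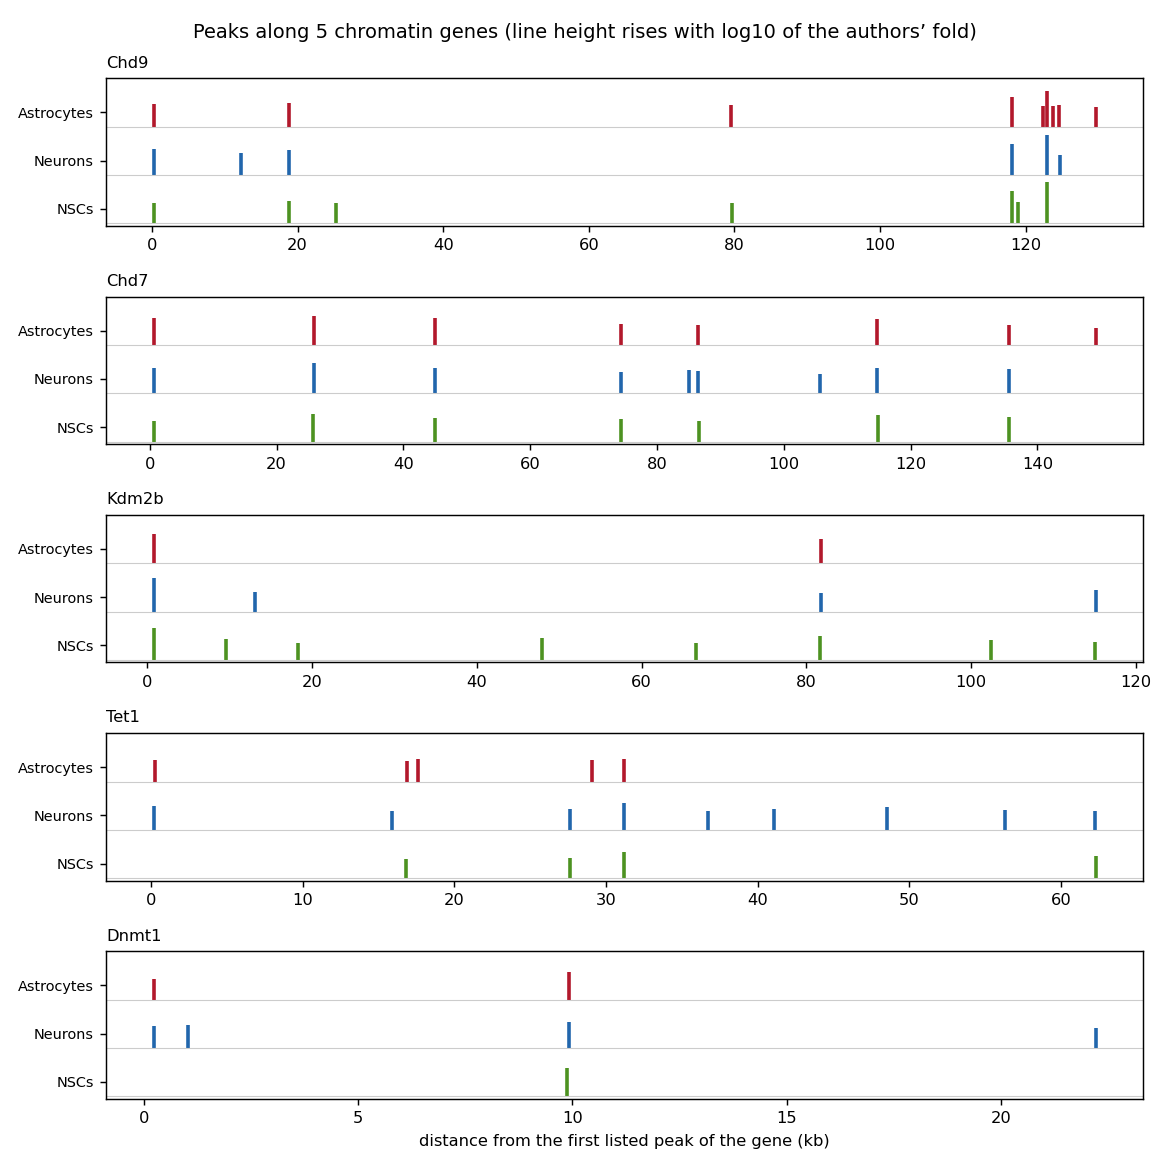
Peaks over input along Chd9, Chd7, Kdm2b, Tet1 and Dnmt1 in Astrocytes, Neurons and NSCs (rows of each panel), by distance from the gene's first listed peak (horizontal axis, kb). Each line is a peak and its height grows with log10 of the authors' fold: the tall Chd9 line stands in all 3 rows, the Chd7 lines align at 7 sites, and the Kdm2b row of NSCs holds 8 lines where that of Astrocytes holds 2.

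Histone lysine methyltransferases had peaks in 13 of 23 genes in Astrocytes, 14 in Neurons and 14 in NSCs, with 37, 41 and 36 peaks. Ash1l, which methylates histone H3 lysine 36, was second only to Hdac9 in number, with 12, 15 and 10 peaks. Per 100 kb that was 8.79 in Astrocytes, 11.0 in Neurons and 7.33 in NSCs, the densest chromatin gene of at least 20 kb and 5 peaks in Astrocytes and NSCs, and below Tet1 in Neurons. The leading Ash1l peak lay in the 2 kb downstream of the gene, at chr2:188390458-188391004 in Astrocytes, with folds of 35.7 in Astrocytes, 34.0 in Neurons and 33.6 in NSCs. Only 3 of the 20 Ash1l sites were in all 3 cell types. Kmt2c, a lysine 4 methyltransferase of enhancers, had 6, 7 and 9 peaks in Astrocytes, Neurons and NSCs, and 2 of its 17 sites were in all 3. Setd7, which methylates lysine 4 and many non-histone proteins, had 4, 1 and 4 peaks, and Setd5, a SET domain protein, had 2, 0 and 2. Ezh1 and Ezh2, the catalytic subunits of Polycomb repressive complex 2, had few: 1, 1 and 1 for Ezh1, and 2, 2 and 1 for Ezh2.

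Histone lysine demethylases had peaks in 12 of 20 genes in Astrocytes, 13 in Neurons and 13 in NSCs, with 18, 30 and 27 peaks. Kdm2b, which binds unmethylated CpG islands and recruits a variant Polycomb complex 1, had 2 peaks in Astrocytes, 4 in Neurons and 8 in NSCs. Its leading intronic peak, chr12:39032007-39033137 in Neurons, had a fold of 64.7 there. The peaks overlapping it had folds of 37.4 in Astrocytes and 51.2 in NSCs. Kdm4c, a demethylase of lysine 9, had 3, 7 and 4 peaks in Astrocytes, Neurons and NSCs, of which 1 site of 9 was in all 3. Kdm5a, which removes lysine 4 methylation, had 3 peaks in Neurons and 0 in Astrocytes and NSCs. Kdm6a had 2, 3 and 1 peaks, but the files place it on chromosome Y and GRCr8 places it on X. Setd1b also differs, on chromosome 1 in the files and 12 in GRCr8, while the other 62 genes were on the same chromosome in both. The lists name 10 other protein-coding genes within 200 kb of the Setd1b regions. In GRCr8 all 10 lie within 200 kb of Setd1a, on chromosome 1, and 0 within that distance of Setd1b, so every value given here for Setd1b concerns regions whose neighbours are those of Setd1a. Kdm4d and Kdm4dl2 are close copies, as are the sex-linked pair Kdm5c and Kdm5d, so how reads divided between copies is uncertain.

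Histone deacetylases had peaks in 5 of 12 genes in Astrocytes, 5 in Neurons and 4 in NSCs, with 31, 44 and 33 peaks. Hdac9, a class IIa deacetylase that represses Mef2 target genes, held 24 in Astrocytes, 31 in Neurons and 27 in NSCs. It spans 862 kb in GRCr8, the length used here for densities. Its listed regions extend over only 541 kb, from the 2 kb downstream of the gene to its promoter, so its density may be understated. Its intronic peak at chr6:54234211-54234889 had the largest fold of any chromatin gene in Astrocytes, 122. The overlapping peaks had folds of 107 in Neurons and 42.0 in NSCs. Another Hdac9 intron, at chr6:54279160-54280017 in Astrocytes, carried peaks with folds of 80.2 in Astrocytes, 79.7 in Neurons and 86.5 in NSCs. A further Hdac9 peak, chr6:53967514-53967982, had a fold of 45.8 in Astrocytes. Of the 50 Hdac9 sites 12 were in all 3 cell types and 32 in 1. Hdac4, of the same class, had 4, 9 and 4 peaks in Astrocytes, Neurons and NSCs, and none of its 14 sites was in all 3. Of the class I deacetylases, Hdac1 had 1, 0 and 1 peaks, Hdac3 had 1, 2 and 0, and no region naming Hdac2 is in the lists used here.

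The paired acetyltransferases differed in their counts. Ep300 (p300) had 5 peaks in Astrocytes, 2 in Neurons and 3 in NSCs. Crebbp (CBP), its paralogue, had 0 in Astrocytes, 5 in Neurons and 3 in NSCs. Both peak sets were intronic except for 1 Astrocyte and 1 NSC peak of Ep300 and 1 Neuron peak of Crebbp that also touched an exon.

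The enzymes of cytosine methylation had 15 peaks in Astrocytes, 22 in Neurons and 14 in NSCs, in 5, 6 and 4 of 7 protein-coding genes. Tet1 had 5, 9 and 4 peaks, and at 12.4 per 100 kb in Neurons it was the densest there of the chromatin genes with at least 20 kb and 5 peaks. Of its 12 sites 1 was in all 3 cell types, an intronic site at chr20:27388761-27389369 in Neurons with a fold of 27.6. The overlapping Tet1 peaks had folds of 13.5 in Astrocytes and 22.6 in NSCs. Tet2 had 3, 4 and 5 peaks in Astrocytes, Neurons and NSCs and Tet3 had 3, 3 and 4. The leading intronic Tet2 peak, chr2:238776423-238777082 in Astrocytes, had folds of 44.7 in Astrocytes, 46.9 in Neurons and 29.5 in NSCs. Dnmt1, which copies methylation after replication, had 2, 4 and 1 peaks. The Dnmt1 peak present in each cell type, at chr8:21953993-21954545 in Astrocytes, had folds of 27.7 in Astrocytes, 23.2 in Neurons and 33.1 in NSCs. Dnmt3b, a de novo methyltransferase, had 2, 1 and 0 peaks. Dnmt3l, the catalytically inactive partner of the de novo enzymes, had 0, 1 and 0. The pseudogene Dnmt3b-ps2 had 0, 0 and 1, in a region that also names LOC100362384. No region naming Dnmt3a, the de novo enzyme of 114 kb, is in the lists used here.

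Peaks in 1 cell type alone were found for 2 genes in Astrocytes, 8 in Neurons and 4 in NSCs. Over the 76 RefSeq chromatin genes that was 2.63% in Astrocytes, 10.5% in Neurons and, with the pseudogene left out, 3.95% in NSCs, against 3.24%, 4.89% and 3.05% of all genes. In the middle length range 1, 4 and 3 of the 38 chromatin genes had peaks in Astrocytes, Neurons or NSCs alone, against 3.15%, 5.32% and 3.51% of all genes of those lengths. These are counts of 8 genes or fewer, and Neurons had the largest share over all genes too. The Neuron genes were Dnmt3l, Hdac8, Kdm5a, Kdm5c, Kdm6b, Kmt5c, Setd3 and Setd4. Among these, Kdm6b removes lysine 27 methylation, Kmt5c methylates histone H4 lysine 20 and Setd3 methylates actin. The NSC genes were Dnmt3b-ps2, Kdm1b, Kdm3b and Kmt2d, and the Astrocyte genes were Kdm4d and Kmt2b. In the direct comparison of the 2 libraries, Kmt2b had 2 regions higher in Neurons than Astrocytes and 0 higher in Astrocytes than Neurons. Kdm4d had 0 and 1. Chd3, Hdac7, Hdac10 and Kdm3a had no peak over input and were named only in comparisons. Besides Dnmt3a and Hdac2, the RefSeq genes that meet the rule and are named in no list were Chd1l2, Chd9nb, Hdac1l, Hdac6, Hdac11, Kdm5dl1, Kmt5al1, Kmt5al2, Kmt5al3, Setd1a and Setd6, with the doubt given above about the names Setd1a and Setd1b.

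Promoter peaks were few. The promoter class was given to 5 of 140 chromatin gene peaks in Astrocytes (3.57%, interval 1.17 to 8.14), 8 of 185 in Neurons (4.32%, 1.89 to 8.34) and 8 of 147 in NSCs (5.44%, 2.38 to 10.4), against 7.79%, 8.29% and 7.84% of all peaks with a gene name. These counts include peaks whose promoter belongs to another gene. The files do not state how far the class extends. Chd1l, a remodeller recruited by poly(ADP-ribose), was the only chromatin gene with its own promoter peak in all 3 cell types, at chr2:199793391-199793907 in Astrocytes. Its folds were 7.05 in Astrocytes, 8.52 in Neurons and 9.18 in NSCs, in the lower part of each list. Tet1 had a promoter peak in the shore of a CpG island, with folds of 11.3 at chr20:27357910-27358364 in Astrocytes and 16.5 at chr20:27357875-27358194 in Neurons, and none in NSCs. Kmt5c had one in Neurons, at chr1:72675210-72675596 with a fold of 15.0, and Setd3 had one in Neurons with a fold of 9.66. In Astrocytes Kmt2b, a lysine 4 methyltransferase, had a promoter peak with a fold of 7.15 that also names Mir3569 and Zbtb32. NSC promoter peaks lay in a CpG island for Hdac9 (fold 16.3) and Kdm2a (fold 8.32), a lysine 36 demethylase. They lay in a shore for Kdm4c (fold 10.0) and for Kdm5b (fold 13.8), a lysine 4 demethylase, and the Kdm5b peak also names LOC103691912 and Mgat4e. Dnmt3b-ps2 had a promoter peak with a fold of 13.2 in NSCs.

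Overlapping peaks could also differ in class. Chd5, a CHD protein found mainly in neurons, had overlapping peaks in all 3 cell types, starting at chr5:169522362 in Astrocytes, 169522505 in Neurons and 169522380 in NSCs. The Astrocyte and NSC peaks, with folds of 9.93 and 10.1, were given the promoter and intron classes. The Neuron peak, with a fold of 9.44, was given intron alone.

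To show how unlike these promoters are in base composition, the 250 bases upstream of the RefSeq start are given for 3 of the genes with the largest promoter folds, 5′ to 3′ on the gene's strand, with each CG dinucleotide in capitals. They come from RefSeq on GRCr8, at chr20:25766556-25766805 (plus strand) for Tet1, chr1:78135932-78136181 (minus) for Kmt5c and chr13:48554147-48554396 (plus) for Kdm5b. The build of the peak lists is not known, so whether a peak covers the printed bases is not known either. The Hdac9 sequence is not printed because its start in the RefSeq table lies 299 kb inside the gene.
Tet1: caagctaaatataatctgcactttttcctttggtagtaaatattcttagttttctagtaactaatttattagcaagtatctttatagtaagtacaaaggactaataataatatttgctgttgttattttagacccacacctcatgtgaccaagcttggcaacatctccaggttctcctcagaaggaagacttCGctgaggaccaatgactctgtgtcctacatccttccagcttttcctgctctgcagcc
Kmt5c: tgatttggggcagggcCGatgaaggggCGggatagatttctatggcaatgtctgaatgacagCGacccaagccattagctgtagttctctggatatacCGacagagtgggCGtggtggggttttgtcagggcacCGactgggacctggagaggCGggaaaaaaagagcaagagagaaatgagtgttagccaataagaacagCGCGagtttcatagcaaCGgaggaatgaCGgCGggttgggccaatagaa
Kdm5b: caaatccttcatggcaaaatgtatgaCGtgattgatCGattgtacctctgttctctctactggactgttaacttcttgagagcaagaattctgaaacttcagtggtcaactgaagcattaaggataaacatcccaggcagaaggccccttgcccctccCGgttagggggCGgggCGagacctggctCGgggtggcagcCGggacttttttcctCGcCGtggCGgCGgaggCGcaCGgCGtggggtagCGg

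The Tet1 window was 62.0% A and T with 1 CG, and 10.5% of the promoter windows in the RefSeq table had at least that share of A and T. The table lists 3 starts for Tet1, and the first, at the outer end of the gene, was used. The composition at the other starts is not given here, and the Tet1 promoter peaks were placed in a CpG island shore. Whether this window is the promoter near those peaks is thus not known. The Kmt5c window was 47.6% A and T with 12 CG, and the Kdm5b window was 44.4% with 15 CG, against medians of 48.0% and 6 over all windows. Over the 10 chromatin genes with a promoter peak and an entry, the median was 38.4% A and T and 21.5 CG, against 38.6% and 18 in the 40 other chromatin genes with an entry. The 10 include Hdac9, whose window was 65.6% A and T with 2 CG. They also include Chd1l and Kdm2a, whose starts in the RefSeq table lie 20.4 and 15.5 kb inside the gene. These medians may thus mix in windows that are not the promoters under the peaks. A CG reads the same on both strands, and 7.53% of the windows of 27457 genes held none.

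Between cell types, the authors also called regions directly from 1 immunoprecipitated library against another, and these lists name chromatin genes in both directions. Each library enters 2 of the 3 pairs, so the comparisons are not independent. For Neurons and NSCs, regions higher in Neurons named 30 of the 76 genes (39.5%), against 25.5% of all genes, and regions higher in NSCs named 27 (35.5%), against 22.5%. For Astrocytes and NSCs, regions higher in Astrocytes named 33 (43.4%), against 20.4%, and regions higher in NSCs named 27 (35.5%), against 24.3%. For Astrocytes and Neurons, regions higher in Astrocytes named 18 (23.7%), against 16.8%, and regions higher in Neurons named 31 (40.8%), against 28% of all genes. Among genes of the middle length range, the widest gap was in regions higher in Astrocytes than NSCs, which named 17 of 38 chromatin genes (44.7%), against 27.6%. That list was also the most sensitive to the score: at a score of at least 62.44 it named 12 of the 76 (15.8%), against 12.3% of all genes. At a fold of at least 9.53 it named 25 of the 76 (32.9%), against 12.7% of all genes. Gene bodies alone gave 42.1% against 18.4%, and regions naming a single gene gave 40.8% against 18.8%. These settings were not matched for length. In the other 5 lists the shares at that length were 31.6% against 35.2% (higher in Neurons than NSCs), 36.8% against 31.2% (NSCs than Neurons), 34.2% against 33.8% (NSCs than Astrocytes), 26.3% against 22.3% (Astrocytes than Neurons) and 34.2% against 38.6% (Neurons than Astrocytes).

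The balance of directions was that of genes at large. Of the chromatin gene regions in the pair of Neurons and NSCs, 54.9% were higher in Neurons (interval 44.7 to 64.8), against 54.8% of all regions with a gene name. In the pair of Astrocytes and NSCs 41.7% were higher in Astrocytes (32.1 to 51.9), against 42.0%. In the pair of Astrocytes and Neurons 29.9% were higher in Astrocytes (20.5 to 40.6), against 29.8%. Both directions stood in the same gene for 15 of the 76 genes in the pair of Neurons and NSCs (19.7%), against 11.7% of all genes. They did so for 20 in the pair of Astrocytes and NSCs (26.3%), against 10.6%, and for 11 in the pair of Astrocytes and Neurons (14.5%), against 9.72%. In the middle length range the counts were 5, 9 and 5 of 38 chromatin genes in these 3 pairs (13.2%, 23.7% and 13.2%), against 13%, 11.5% and 10.2% of all genes of those lengths.

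**Figure D5:**
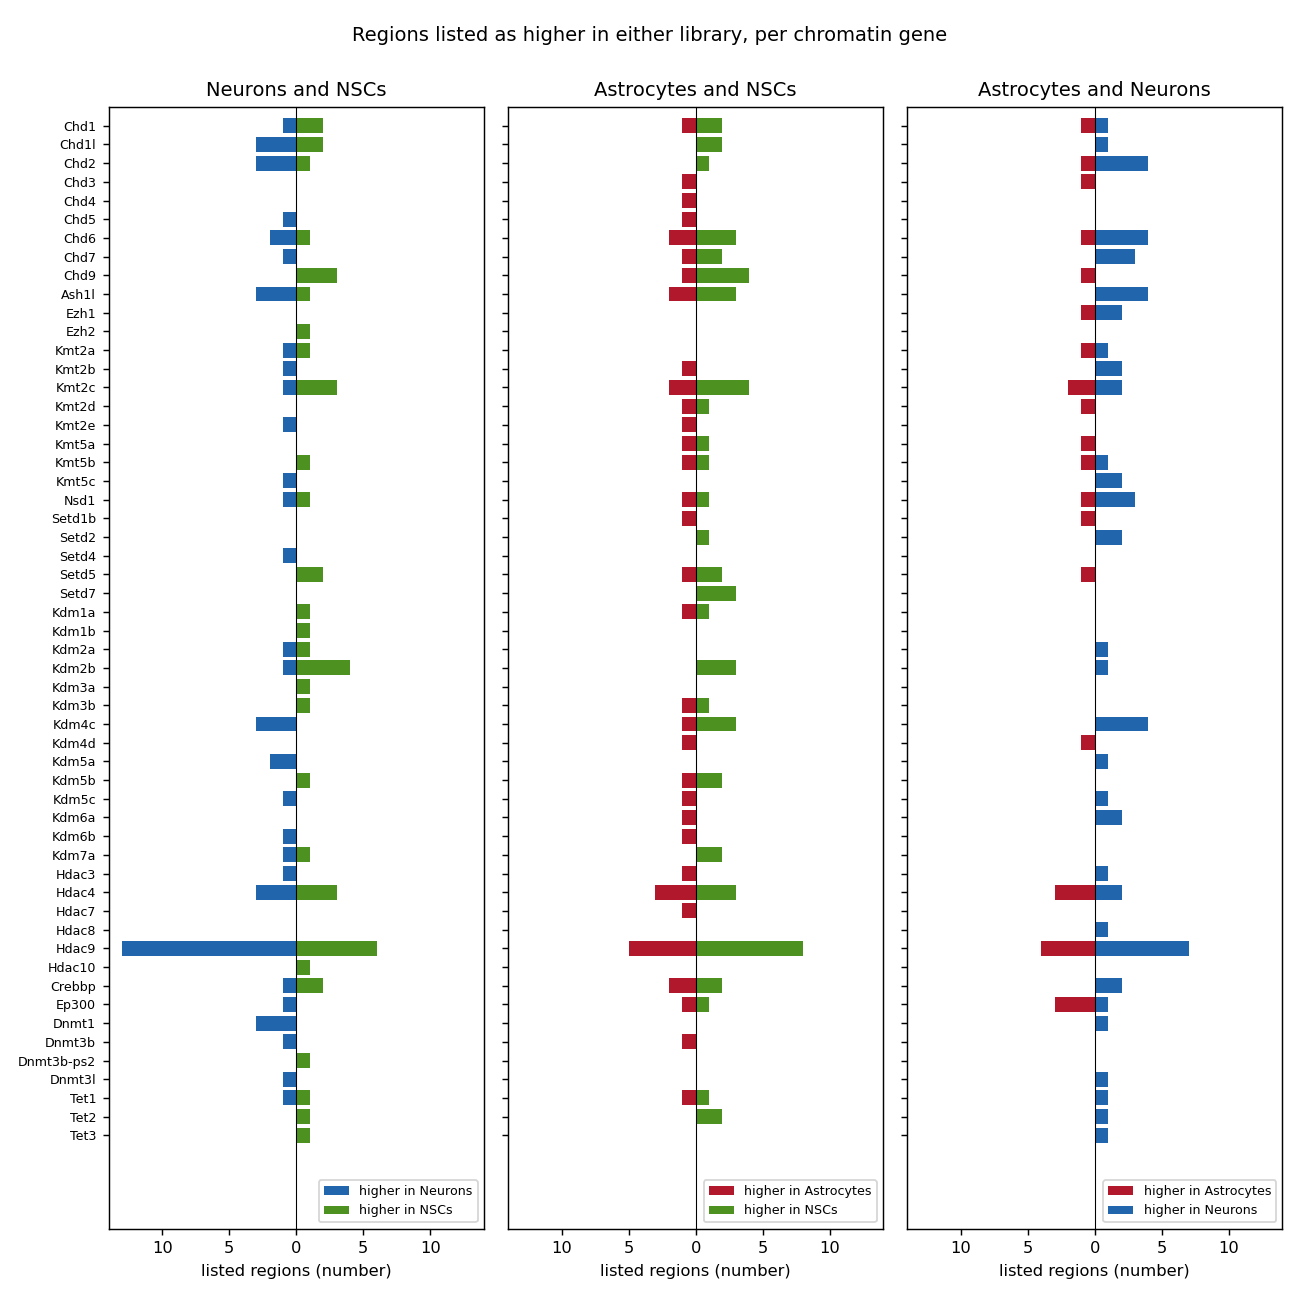
Number of listed regions per chromatin gene (horizontal axis) for Neurons and NSCs, Astrocytes and NSCs, and Astrocytes and Neurons. Bars to the left are regions higher in the first-named library and bars to the right are regions higher in the second; Hdac9 has bars on both sides in each panel, Dnmt1 only on the Neuron side, and no demethylase but Kdm4d is on the Astrocyte side of the right panel.

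By enzyme class, the pair of Astrocytes and Neurons gave small counts, to be read against 16.8% of all genes with a region higher in Astrocytes and 28% with one higher in Neurons. Among all genes of the middle length range these shares were 22.3% and 38.6%, and the classes were not matched for length. Of the demethylases 1 of 20, Kdm4d, had a region higher in Astrocytes and 6 had regions higher in Neurons. Of the cytosine-modifying genes 0 of 7 had a region higher in Astrocytes, which with so few genes is near that background, and 5 had regions higher in Neurons. Among the CHD genes 5 of 12 were named in each direction, and among the methyltransferases 9 of 23. These differences between classes were not tested.

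Some genes were listed in 1 direction whenever a given cell type was compared. Neurons were the higher library for Chd7, Dnmt1, Dnmt3l, Hdac3, Kdm4c, Kdm5a, Kdm5c, Kmt2b and Kmt5c, and the lower one for Chd9 and Setd5. NSCs were higher for Tet2, and lower for Chd5, Dnmt3b, Hdac3, Kdm5c, Kdm6b, Kmt2b and Kmt2e, a reader of lysine 4 methylation. Astrocytes were higher for Chd3, Kdm4d and the regions named Setd1b, and lower for Chd1l, Kdm2b, Setd2 and Tet2. Of the 76 genes, 3.95% had Astrocytes as the higher library in this sense and 5.26% as the lower, against 2.85% and 5.5% of all genes. For Neurons it was 11.8% and 2.63%, against 6.63% and 2.05%, and for NSCs 1.32% and 9.21%, against 4.95% and 3.48%. Among the 38 chromatin genes of the middle length range, Astrocytes were the higher library for 3 and the lower for 3 (7.89% each), against 4.78% and 9.91% of all genes of those lengths. There Neurons were higher for 3 (7.89%) and lower for 1 (2.63%), against 10.9% and 3.98%, and NSCs higher for 1 (2.63%) and lower for 3 (7.89%), against 8.52% and 6.68%. Most of these genes rest on 1 or a few regions. Dnmt1 had 3 regions higher in Neurons than NSCs and 1 higher in Neurons than Astrocytes. Of these, chr8:21966427-21966672, in an intron and in a CpG island shore, had folds in the authors' deposited tables of 9.70 over NSCs and, for the slightly shorter chr8:21966427-21966662, 8.73 over Astrocytes. The intronic Dnmt3l region chr20:11347472-11348101 had a fold of 12.9 in Neurons relative to NSCs in the authors' deposited table. Against Astrocytes the overlapping Dnmt3l region had a fold of 11.5 in the authors' deposited table. An exonic Tet2 region, chr2:238721924-238722370, was higher in NSCs in both comparisons of the authors' deposited tables, with folds of 6.65 over Astrocytes and 6.24 over Neurons. The Kmt5c promoter peak was listed as higher in Neurons in both, with folds in the authors' deposited tables of 11.6 over Astrocytes and 12.9 over NSCs. Kdm2b had 1 region higher in Neurons than NSCs and 4 higher in NSCs, and 0 higher in Astrocytes than NSCs and 3 higher in NSCs.

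The largest folds in the comparisons were intronic with 1 exception. In the authors' deposited table of regions higher in Astrocytes than NSCs, Ash1l led with a fold of 26.6 at chr2:188297208-188297602, above 99.9% of that list. Nsd1, a lysine 36 dimethyltransferase, followed there with 18.6 at chr17:9922851-9923405, and Kdm3b, a lysine 9 demethylase, with 17.3 at chr18:27628052-27628563. In the authors' deposited table of regions higher in NSCs than Astrocytes, Setd5 had a fold of 15.9 at chr4:145079554-145079865, and Kdm4c had 15.9 at chr5:90891201-90891502 and also 15.9 at chr5:90888995-90889827. For Neurons over NSCs, the authors' deposited table gave Hdac9 folds of 18.5 at chr6:53855729-53856256 and 17.3 at chr6:54244458-54244749, and Chd2 a fold of 14.8 at chr1:134840098-134840595. For NSCs over Neurons, the authors' deposited table gave Kdm1a, the lysine 4 demethylase LSD1, a fold of 17.4 at chr5:154950238-154950627. It was followed in the authors' deposited table by Kmt2a, a lysine 4 methyltransferase, with 16.0 at chr8:49133533-49134022 and Setd5 with 14.8 at chr4:145079554-145079875. For Astrocytes over Neurons, the authors' deposited table gave Hdac9 a fold of 18.2 at chr6:54167656-54168097, Hdac4 one of 15.6 at chr9:99246498-99246840 and the region named Setd1b, with its doubtful place, one of 14.5 at chr1:199238927-199239358. For Neurons over Astrocytes, the authors' deposited table gave Kmt5b, an H4 lysine 20 methyltransferase, a fold of 17.6 at chr1:219038417-219038847 and Kdm2a one of 15.6 at chr1:219593861-219594261. The exception, in the authors' deposited table of that same direction, was an exonic Hdac8 region with a fold of 15.6 at chrX:72357840-72358365 that also names LOC102554565.

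Not every region of the comparison lists met a peak over input. Of 43 chromatin gene regions higher in Astrocytes than NSCs, 37.2% met a peak in neither library (interval 23.0 to 53.3), against 23.1% of all regions with a gene name in that list. Of 60 higher in NSCs than Astrocytes it was 30.0% (18.8 to 43.2), against 27.8%. Of 26 higher in Astrocytes than Neurons it was 38.5% (20.2 to 59.4), against 25.5%, and of 61 higher in Neurons than Astrocytes it was 29.5% (18.5 to 42.6), against 27.2%. Of 56 higher in Neurons than NSCs it was 10.7% (4.03 to 21.9), against 18.7%, and of 46 higher in NSCs than Neurons it was 19.6% (9.36 to 33.9), against 31.2%. Each interval held the value over all regions. Crebbp gives an example: 2 of its regions were higher in Astrocytes than NSCs, although Crebbp had no Astrocyte peak over input.

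In the authors' deposited tables of gene terms, neither the 5 chromatin and DNA methylation terms examined nor the lysine degradation pathway had an adjusted p under 0.05. Chromatin binding counted 190 genes in Astrocytes, 218 in Neurons and 198 in NSCs of 396, with adjusted p of 0.856, 0.945 and 0.879 in the authors' deposited tables. The lysine degradation pathway, which lists lysine methyltransferases, counted 39, 43 and 41 of 61 genes, with adjusted p of 0.0891, 0.104 and 0.0638 in the authors' deposited tables. Its counted genes included 11 chromatin genes of the present rule in Astrocytes, 13 in Neurons and 12 in NSCs.

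Of 91 further chromatin genes outside the rule, such as subunits of SWI/SNF, Polycomb and NuRD complexes, 47 had a peak in Astrocytes (51.6%), 58 in Neurons (63.7%) and 53 in NSCs (58.2%), against 43.1%, 46.1% and 42.8% of all genes. Their median length was 31.6 kb. Of the 31 that fell in the length range of 24.4 to 88.9 kb, 61.3% had a peak in Astrocytes, 77.4% in Neurons and 71.0% in NSCs, against 65.6%, 69.8% and 65.5% of all genes of those lengths. In Astrocytes, Neurons and NSCs, in that order, SWI/SNF subunits had peaks in 14, 17 and 15 of 21 genes. Polycomb subunits had them in 3, 5 and 5 of 16. Sirtuins, the NAD-dependent deacylases, had them in 3, 5 and 5 of 7.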

How the data were processed

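6mA-immunoprecipitated genomic DNA from Astrocytes, Neurons and NSCs (1 library each) was analysed from the deposited lists. Reads were aligned with BWA, per the submitters' processing notes; the sources used here do not name its version, the genome build or the peak caller's settings. Read counts per library and mapping rates in percent were deposited by the authors. The authors' deposited score is 10 times −log10 p, at least 50 in every list (p of 1e-05). The authors' deposited fold is a ratio of a library to its input, or to another immunoprecipitated library in the 6 comparison lists. The deposited term tables hold gene counts and adjusted p-values computed by the authors, and the authors' deposited annotation names genes by class for each region.

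Computed here (Python 3.11.15, pandas 2.3.3, scipy 1.17.1, numpy 2.4.6): genes named by any class, including the 2 kb upstream and downstream; overlaps of at least 1 bp; exact Clopper-Pearson 95% intervals; densities from RefSeq GRCr8 gene lengths, which include Kdm6a and Setd1b in pooled values. The background is every named protein-coding RefSeq gene. Overlap and counting steps were tested on simulated lists. 6 blank lines were skipped, and 1 row of the mapping summary, an astrocyte input without a sample, was not used. No test was possible between single libraries. The genes and lists were chosen with earlier results of these data known. Named are the 5 peaks with the largest fold per peak list, the 3 regions with the largest fold per comparison, every gene with its own promoter peak, every Dnmt and Tet gene, the genes with the most peaks (5 by number, 5 per 100 kb), those with peaks in 1 cell type or in no list, and those with 1 direction in 2 comparisons. Other genes named, such as Chd6, Chd2, Chd8, Hdac4, Setd7, Ezh1, Ezh2, Ep300 and Crebbp, were chosen after their values were seen. A stricter score or fold, gene bodies alone, regions naming a single gene, a larger overlap and another gene length were tried.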

Additional observations from a re-analysis of the deposited data

How the results depend on the processing

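Of 48 values recomputed under an alternative, 37 stayed near the value reported and 11 moved: a count moved when it left a range of 1.5 times, a shared percent when it left its exact interval, and a median density when it changed at 3 significant digits. A stricter score (at least 87.44 for peaks and 62.44 for comparisons, the median of each kind) left 25 chromatin genes with a peak in Astrocytes, 27 in Neurons and 30 in NSCs. It left 14 genes with regions higher in Neurons than NSCs, 12 higher in Astrocytes than NSCs (15.8% of the 76 RefSeq genes, against 12.3% of all genes), 16 higher in NSCs than Astrocytes and 10 higher in Astrocytes than Neurons. The shared percent of peaks was then 51.7 in Astrocytes, 45.6 in Neurons and 51.7 in NSCs. At that score 32.9% of the 76 RefSeq chromatin genes had a peak in Astrocytes, 35.5% in Neurons and 38.2% in NSCs, against 30.9%, 33.3% and 30.5% of all genes. A stricter fold (at least 9.53) left 20 genes with regions higher in Neurons than Astrocytes. Fewer regions enter each stricter count by construction. Gene bodies alone, regions that name a single gene and an overlap of at least 50% of a peak moved none of these values. The median peaks per 100 kb over the listed chromatin genes were 1.74 in Astrocytes, 2.74 in Neurons and 2.04 in NSCs. They were the same with the larger of gene length and region extent. That alternative could not move them, because the extent exceeded the length for Kmt2b alone. Leaving out the peaks of Hdac9, an alternative chosen after seeing the data, gave shared percents of 34.5 in Astrocytes, 26.0 in Neurons and 33.3 in NSCs. No paired analysis was possible because each cell type has 1 library and no result comes from a test, and no library could be left out for the same reason. Absence from a list means that no region reached a score of 50 at this depth, not that 6mA is absent. Whether the libraries would repeat was not tested.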
